A study of Mus musculus with 12 samples.

Results

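The cholesterol and fatty acid synthesis genes of C2C12 cells were examined as a group of 31 named genes, which comprised the enzymes of the sterol pathway, the regulators of the SREBP transcription factors and the lipogenic enzymes. C2C12 cells are mouse myoblasts that divide in growth medium (GM) and fuse into myotubes when serum is reduced. Members were found by their symbol in the 3 deposited RNA-seq tables. Of the 31 genes, 19 had a row in at least 1 table, among 10289 genes with a row in any of them. Of those 10289 genes, 9266 were protein-coding, where the annotation used here holds 21951 protein-coding genes, silent ones included. The tables came from 8 RNA-seq libraries of stable lines made with lentivirus under puromycin selection, 2 in each of 4 groups. These were GFP-overexpressing cells in GM (day 0), GFP-overexpressing cells after 4 days in differentiation medium (D4), and cells overexpressing mouse METTL3 or METTL14, subunits of the RNA m6A methyltransferase, in GM. The titles of the METTL14 libraries give day 0, whereas their time point field gives day 4, and the title was used. A further 4 MeRIP-seq libraries, 2 from each stage, were not analysed here.

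Cholesterol is built from acetyl-CoA through mevalonate, farnesyl diphosphate and squalene, and fatty acids are built from the same acetyl-CoA by way of malonyl-CoA. Both routes are switched on by the SREBP transcription factors, which are held in the endoplasmic reticulum by SCAP and INSIG proteins while sterols are plentiful and are released by proteolysis when sterols fall. Proliferating and fusing muscle cells need both products for membranes.

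Each table lists the genes that passed a limit of 0.05 on FDR in one comparison, namely D4 against GM in GFP cells, METTL3 against GFP in GM, or METTL14 against GFP in GM. The value used here is the mean normalized count, which is the read count of a gene after correction for library size, averaged over libraries by the authors. It is a single value per gene. No value per library, no error and no number of reads per library accompanies it, so no group could be set against another and no test was made. The fold changes and p-values of the tables are the authors' own comparisons and were not used, so neither the direction nor the size of any change is given. The mean of a gene was the same in each table that listed it (largest relative difference 4.77e-10 over 1746 genes), so the tables share a set of averaged libraries. Which libraries were averaged is not stated. In bulk RNA a smaller share of cells of one kind and less RNA per cell cannot be told apart.

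The introduced genes and the cell type were checked first, as far as pooled values allow. Mettl3 was listed in the METTL3 table and Mettl14 in the METTL14 table, which does not show their level in each library. Mettl14 was also listed in the D4 table, where both groups are GFP cells, so a row is not particular to overexpression. Mettl3 was not listed in the D4 table. Of the 4 myoblast markers (Myod1, Myf5, Des and Cdh15), the D4, METTL3 and METTL14 tables listed 3, 4 and 3. Of the 4 myotube markers (Myog, Myh3, Acta1 and Ckm), they listed 4, 0 and 1. Of all protein-coding genes, silent ones included, they listed 40.1%, 7.80% and 4.91%. A row gives no direction of change, so these counts do not by themselves show the cell type. Of the adipocyte markers Adipoq, Plin1, Cidec, Fabp4 and Lep, 0 of 5 had a row, which gives no level for them.

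Promoter sequences are shown for Hmgcs1 and 4 other members. Of the 24 members with a promoter window, only Hmgcs1 matched the letters searched for the sterol regulatory element, the site bound by SREBP. The other 4 had the highest mean normalized count per kb of exon. They were taken from the members with a promoter window, at least 100 bases of it outside annotated exons. Scd2, Scd1 and Fads2, which ranked above Ebp, did not meet this rule. The sequences are from RefSeq (build GRCm38.p6), run 5′ to 3′ on the strand of the gene and end at or before the start of transcription. Capitals mark the motifs searched on both strands, namely TCACNCCAC for the sterol regulatory element, CACGTG for the E-box that SREBP-1 can also bind, CCAAT for the site of NF-Y, and GGGCGG for the GC box of SP1. The stretches lie at chr13:119690101-119690350 (plus strand) for Hmgcs1, chr5:4104747-4104947 (minus) for Cyp51, chr15:82147019-82147180 (plus) for Srebf2, chr11:100528001-100528250 (minus) for Acly and chrX:8193513-8193762 (minus) for Ebp.
Hmgcs1: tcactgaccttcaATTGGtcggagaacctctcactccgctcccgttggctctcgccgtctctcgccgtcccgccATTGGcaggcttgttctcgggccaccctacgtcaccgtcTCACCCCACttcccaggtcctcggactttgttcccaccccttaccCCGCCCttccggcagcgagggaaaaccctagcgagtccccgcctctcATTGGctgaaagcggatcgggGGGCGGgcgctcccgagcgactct
Cyp51: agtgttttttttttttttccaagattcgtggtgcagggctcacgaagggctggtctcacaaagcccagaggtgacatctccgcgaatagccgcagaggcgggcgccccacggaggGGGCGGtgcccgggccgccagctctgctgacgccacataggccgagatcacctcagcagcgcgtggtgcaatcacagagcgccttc
Srebf2: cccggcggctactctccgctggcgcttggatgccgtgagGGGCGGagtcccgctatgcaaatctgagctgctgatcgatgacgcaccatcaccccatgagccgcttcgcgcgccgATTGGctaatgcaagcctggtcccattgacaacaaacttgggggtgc
Acly: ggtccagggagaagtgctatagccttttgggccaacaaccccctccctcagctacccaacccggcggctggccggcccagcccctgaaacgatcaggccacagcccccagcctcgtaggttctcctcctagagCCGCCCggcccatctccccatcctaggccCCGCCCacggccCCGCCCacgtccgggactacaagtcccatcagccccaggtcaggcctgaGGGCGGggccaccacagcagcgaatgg
Ebp: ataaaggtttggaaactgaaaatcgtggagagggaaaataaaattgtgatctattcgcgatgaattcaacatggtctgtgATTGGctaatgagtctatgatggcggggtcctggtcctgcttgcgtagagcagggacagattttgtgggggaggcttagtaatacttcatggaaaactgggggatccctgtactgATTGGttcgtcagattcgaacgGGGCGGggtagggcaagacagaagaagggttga

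The Hmgcs1 promoter held a match to the sterol regulatory element 128 bases before the start of transcription, together with 3 CCAAT boxes and 2 GC boxes. Hmgcs1 encodes HMG-CoA synthase and had no row in any table, so no level goes with this site. The stretch of Ebp held 2 CCAAT boxes and 1 GC box, that of Srebf2 1 of each, that of Acly 4 GC boxes, and that of Cyp51 1 GC box. These counts cover the printed stretches only. The stretches of Cyp51 and Srebf2 ended 49 and 88 bases before the start. Promoter windows of Cyp51 and Acly, which reach past the start, also held a CCAAT box. Only the exact letters were searched, so the counts do not show that a sterol regulatory element is lacking.

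Promoter windows of 250 bases before to 50 after the start were at hand for 24 of the 31 members, 30 windows in all. A match to the sterol regulatory element was found in 1 of these windows (3.33%). The share was 1.24% of the 32851 windows of all genes and 1.19% of the 21263 windows of protein-coding genes. The E-box was found in 6 member windows (20.0%), those of Dhcr7, Hsd17b7, Insig1, Sc5d and Scap, against 7.15% of all windows. A CCAAT box was found in 66.7% of the member windows and in 37.4% of all windows, and a GC box in 76.7% and 35.7%. Among the windows of protein-coding genes the shares were 7.84% for the E-box, 38.2% for the CCAAT box and 46.2% for the GC box. These shares are descriptions, since windows of a gene overlap and a match of letters is not a bound site. Sites that differ from the letters searched were not counted, so a window without a match may still hold one.

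**Figure D1:**
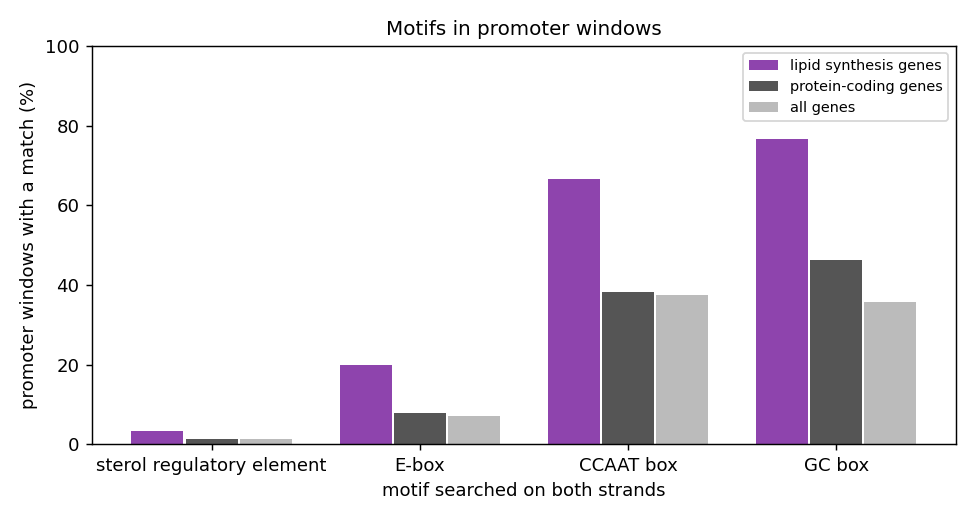
Share of promoter windows (%, vertical axis) with each motif on either strand, for the lipid synthesis genes (30 windows), protein-coding genes (21263) and all genes (32851). The CCAAT box was in 66.7% of the lipid gene windows, 38.2% of the protein-coding windows and 37.4% of all windows. The GC box was in 76.7%, 46.2% and 35.7%.

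Of the 31 members, 18 (58.1%) had a row in the table of D4 against GM, whereas 40.1% of all protein-coding genes had one. That background counts genes that are silent in muscle cells, which cannot be listed, so the 2 shares have unlike bases. Of the 10289 genes with a row anywhere, 95.5% had one for D4 against GM, and of the 19 members with a row 94.7% did. The METTL3 table held 2 of the 31 members (6.45%), against 7.80% of protein-coding genes. On the base of genes with a row anywhere, it held 10.5% of the 19 members and 17.0% of the 10289 genes. The 2 members were Acly, which was also in the D4 table, and Fads2, which was in no other table. The METTL14 table, made by the authors with DESeq2, held 0 of the 31, against 4.91% of protein-coding genes. Both overexpression tables share the GFP libraries in GM with each other and with the D4 table. A member without a row did not pass the limit on FDR or was not tested, and nothing is known here of its level.

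**Figure D2:**
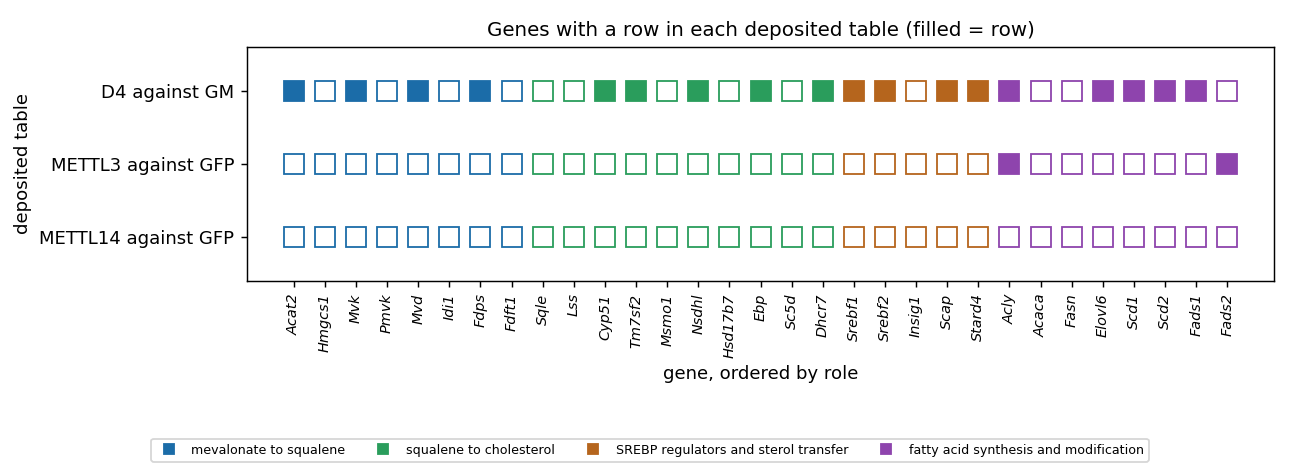
Rows of the 31 genes (horizontal axis, ordered and coloured by role) in the 3 deposited tables (vertical axis), where a filled square is a row and an open square is none. The D4 table holds 18 genes, the METTL3 table Acly and Fads2, and the METTL14 table none of them.

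Rows were spread over all roles. Of the genes from acetyl-CoA to squalene, 4 of 8 were listed at D4, and of those from squalene to cholesterol 5 of 10. Among the SREBP regulators and the sterol transfer gene 4 of 5 were listed, and among the fatty acid genes 5 of 8. Of all protein-coding genes, silent ones included, 40.1% were listed at D4. With so few genes per role, differences between roles were not tested. The 12 members without any row were Hmgcs1, Pmvk, Idi1 and Fdft1 of the first steps, Sqle, Lss, Msmo1, Hsd17b7 and Sc5d of the sterol steps, the SREBP inhibitor Insig1, and Acaca and Fasn, the enzymes that make malonyl-CoA and palmitate. Each route thus held both listed and unlisted enzymes.

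Levels were compared between genes as the mean normalized count per kb of exon. Over the 19 members with a row the median level was 332 per kb, against 115 per kb over 9260 protein-coding genes with a row. Of the 19, 16 lay above that background median and 5 above its 90th percentile. The members are described only where they passed the authors' limit, so these levels do not stand for all 31 genes. Each level is pooled over libraries, and 18 of the 19 genes were listed for D4 against GM, so orders and ratios within GM or within D4 may differ from those given here.

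Fatty acid modification held the highest levels. Scd2 and Scd1 encode stearoyl-CoA desaturases, which put the first double bond into saturated fatty acids. Scd2 (ENSMUSG00000025203, GRCm38 chromosome 19, 44293674 to 44306864, plus strand) had a mean normalized count of 23865, or 4368 per kb. Scd1 (ENSMUSG00000037071, chromosome 19, 44394455 to 44407879, minus strand) had a mean normalized count of 16946, or 3464 per kb. The genes lie 87590 bases apart, and Scd2 was 1.26 times Scd1 per kb, a ratio without an error. With other lengths, or with no length division, that ratio ranged from 1.25 to 1.41. Together Scd2 and Scd1 made up 60.0% of the summed mean normalized count of the 19 members. Scd1, the lower of the pair, was 4.06 times the next member, Cyp51, per kb. With the longest transcript as length, or with no length division, Srebf2 came next instead. Both belong to a family of similar genes, and reads that fit more than one copy could be split or lost in counting.

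The other fatty acid genes were lower. Acly (chromosome 11, 100476353 to 100528000) encodes ATP citrate lyase, which supplies cytosolic acetyl-CoA to both routes, and had a mean normalized count of 3629, or 687 per kb. Fads2 and Fads1 encode the delta-6 and delta-5 desaturases of polyunsaturated fatty acids and lie 81141 bases apart on chromosome 19. Fads2 (10062765 to 10101746) had a mean normalized count of 2017, or 612 per kb. Fads1 (10182888 to 10196877) had a mean normalized count of 2007, or 417 per kb. Their ratio of 1.47 per kb came from the exon length and was 1.00 on the undivided mean normalized counts. Elovl6, which extends palmitate to stearate, had a mean normalized count of 1049.7, or 163 per kb.

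Among the SREBP genes, Srebf2 (ENSMUSG00000022463, chromosome 15, 82147181 to 82205379) led with a mean normalized count of 5929, or 825 per kb. It encodes SREBP-2, which acts mainly on sterol genes. Srebf1 (ENSMUSG00000020538, chromosome 11, 60199089 to 60222581) encodes SREBP-1, which acts mainly on fatty acid genes, and had a mean normalized count of 1871, or 332 per kb. Srebf2 was 2.49 times Srebf1 per kb. With other lengths, or with no length division, the ratio of Srebf2 to Srebf1 ranged from 2.68 to 3.18. Scap, the sterol-sensing escort of both, had a mean normalized count of 1109, or 149 per kb. Stard4, a cytosolic sterol transfer protein, had a mean normalized count of 486, or 87.1 per kb, which was below the background median.

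In the steps from squalene to cholesterol, Cyp51 (ENSMUSG00000001467, chromosome 5, 4081145 to 4104746), the lanosterol 14-alpha-demethylase, had a mean normalized count of 3770.4, or 854 per kb. Ebp, the sterol isomerase, had a mean normalized count of 1385, or 599 per kb. Nsdhl, a C4-demethylation dehydrogenase, had a mean normalized count of 1368, or 479 per kb. Both are on the X chromosome. Dhcr7, which makes cholesterol from its 7-dehydro precursor, had a mean normalized count of 1019, or 175 per kb. Tm7sf2, a sterol reductase, had a mean normalized count of 192, or 43.6 per kb.

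The listed genes from acetyl-CoA to squalene, 4 of 8, had the lowest median level of the roles, 156 per kb. The median was 241 per kb for the SREBP regulators and sterol transfer gene, and 479 per kb for the later sterol steps (5 of 10 listed). Levels of the early and later steps overlapped, at 42.5 to 200 and 43.6 to 854 per kb. The unlisted genes have no level here, so these medians do not stand for the whole routes. Mvd, which makes isopentenyl diphosphate, had a mean normalized count of 372, or 200.4 per kb. Acat2, a cytosolic acetoacetyl-CoA thiolase whose reads may be shared with its close copy Acat3, had a mean normalized count of 486, or 191 per kb. Mvk, the mevalonate kinase, had a mean normalized count of 325, or 122 per kb. Fdps, the farnesyl diphosphate synthase, had a mean normalized count of 179, or 42.5 per kb, the lowest of the 19. Tm7sf2 was close to it at 43.6 per kb, and with the longest coding length Fdps ranked 18 of 19. Scd2 was 103 times Fdps per kb of exon, a ratio without an error.

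**Figure D3:**
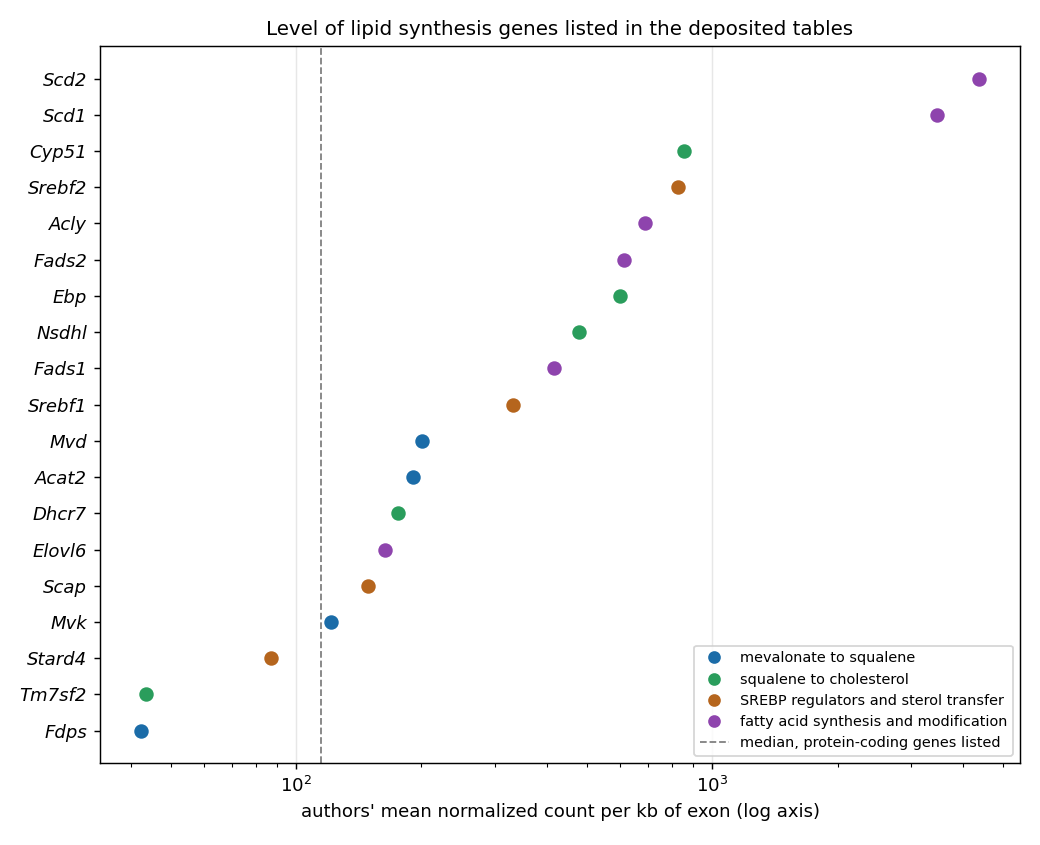
Authors' mean normalized count per kb of exon (horizontal axis, log scale) for the 19 lipid synthesis genes with a row, coloured by role, with the median of 9260 protein-coding genes with a row (115 per kb) as a dashed line. Each point is 1 pooled value without an error; Scd2 (4368 per kb) and Scd1 (3464 per kb) lie far right and Stard4, Tm7sf2 and Fdps to the left of the line.

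A further list of 17 genes of the same pathways was read in the same way. Of these, 12 (70.6%) had a row in the table of D4 against GM, where 40.1% of protein-coding genes had one. The METTL3 table held 3 (17.6%), namely Insig2, Acss2 and Acat1, against 7.80% of protein-coding genes, and the METTL14 table held 0, against 4.91%. As before, the shares of protein-coding genes include silent genes. Their median level was 244 per kb over the 12 with a row. The highest was Acsl3, an acyl-CoA synthetase, at 1281 per kb. The SREBP-cleaving proteases encoded by Mbtps1 and Mbtps2 had levels of 353 and 77.6 per kb, and Acacb, the mitochondrial acetyl-CoA carboxylase, had 2.50 per kb. Insig2, an INSIG protein that had rows in the D4 and METTL3 tables, had a level of 199 per kb.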

How the data were processed

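RNA was measured by RNA-seq in C2C12 cells, 2 libraries in each of 4 groups taken from the sample titles. The authors aligned reads to GRCm38 with hisat2, counted them on Ensembl annotation version 102 with featureCounts, fitted DESeq2 and deposited a table per comparison (3 in all) with genes at FDR ≤ 0.05. Tool versions are not given in the sources used here. The value used is a deposited signal called the mean normalized count, for which the authors divided counts by size factors and averaged them over libraries. The other deposited columns hold the authors' log2 fold changes, standard errors, statistics and p-values, and were not used. The tables give no depth per library, and the study's own read totals were not used here, so no interval is given. The replicates are samples whose separate origin the labels do not state.

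From the tables, rows were counted by gene symbol. Levels per kb were obtained by division by the union of exons in GENCODE M21 (GRCm38, a release other than the one the authors used), where 10282 of 10289 identifiers were found. The background of the row shares was the 21951 protein-coding genes of that annotation, with the 10289 genes with a row as a second base. For levels it was the 9260 protein-coding genes with a row, and for motifs the promoter windows of protein-coding genes and of all genes. Motifs were searched in RefSeq promoter windows. All members with a row were named. The members and lists were chosen with earlier results of these data known. Protein sequences, planned for 3 pairs of related genes, were not analysed here. The alternatives were matching by identifier, a minimum mean of 100, other lengths, other backgrounds, one strand and windows before the start. The motif search and the exon length were tested on simulated data (200 of 200 correct in each). Python 3.11.15, pandas 2.3.3, NumPy 2.4.6 and matplotlib 3.10.9 were used.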

Additional observations from a re-analysis of the deposited data

How the results depend on the processing

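Of the 24 alternatives, 17 stayed within 1.5 times the value reported. The counts of members with a row (18, 2 and 0) were the same when genes were matched by Ensembl identifier or limited to a mean normalized count of at least 100. The lowest member mean was 179, so that limit could change neither these counts nor the member median. CACGTG reads the same on both strands, so the E-box share could not move on the forward strand. The 17 include these settings, which therefore say nothing of robustness. With the genes in any table as the base, the share of genes with a row moved to 95.5% for D4, 17.0% for METTL3 and 10.7% for METTL14. The order of levels depended on the length used. Of the 19 members, 10 held their place with the longest transcript, 4 with the longest coding length and 7 with no length division, whereas Scd2 and Scd1 stayed first and second under each. The share of member windows with a CCAAT box moved to 33.3% on the forward strand alone, where 21.1% of all windows held one. No paired analysis was possible because the tables hold no value per library. Leaving out a library was not possible for the same reason. The tables give no depth or spread per library, so every level is a description.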
